A study of Mus musculus with 6 samples.

Results

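Connexins are membrane proteins that assemble into ringed hemichannels, and hemichannels of neighbouring cells dock to form gap junctions, through which ions and small molecules pass directly from cell to cell. In the retina, gap junctions couple astrocytes to each other, the cells of the vessel wall along its length, and several classes of neuron within their own circuits. Each cell class uses its own set of connexins, so a transcript level in whole retina sums over very different cells.

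The 8 connexin genes described here are *Gja1*, *Gjb2* and *Gjb6*, known from glia, *Gja4*, *Gja5* and *Gjc1*, known from vessels, and *Gjd2* and *Gja10*, known from neurons. They were taken by gene symbol from the 55421 genes of a count table, which holds 20 connexin genes in all. The set was chosen by gene name, and its proposal was selected on the measured fold change of *Gja1* between the groups, so the members' values in that contrast are given as a description. Whether a member met the study's criteria is stated for reference, prints no p-value and supports nothing.

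The samples were retinas of 2-month-old mice, 1 retina per library and 3 libraries per group. Control animals had the genotype Yapfl/fl (YR612, YR613 and YR615), and *Yap* cKO animals had the genotype Yapfl/fl;RaxCreERT2 (YR711, YR713 and YR714). All animals of both groups received 4-hydroxytamoxifen at postnatal days 10 and 14, which activates the recombinase where it is present. The study's purpose, as its design text states it, was to find the molecular signature behind the glaucoma-like features of these mice. According to the study, the *Rax* driver acts in Müller glia and in the non-pigmented epithelium of the ciliary body. The controls carry no recombinase, and the effect of the recombinase itself and that of losing *Yap* cannot be told apart in this design.

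Libraries held 24261799 to 35067068 counts assigned to genes. *Yap1*, the deleted gene, lay between 9.48 and 9.83 TPM (counts per exonic length, scaled to the same sum in every library) in the control retinas and between 3.76 and 3.99 TPM in the *Yap* cKO retinas. Against the label of retina, the 5 markers of rods, 5 of ganglion cells and 4 of cone bipolar cells were all present in every library. Summed TPM of 9 Müller glia markers was 6886 to 7110 in control and 6027 to 6443 in *Yap* cKO retinas, lower without overlap. Its most abundant genes each overlapped between the groups. Their control and *Yap* cKO means were 3017 and 2711 TPM for *Glul*, 1302 and 1357 TPM for *Dkk3*, and 1298 and 982 TPM for *Apoe*. None of the 9 genes was called, while 5 had an unadjusted p below 0.05 in edgeR's quasi-likelihood test. The share of all tested genes at that limit was not computed, so nothing is read from this count. Log2 fold changes were below 0 for 6 and above 0 for 3. *Rlbp1* was lower in every *Yap* cKO retina (-0.36, standard error 0.075) and *Kcnj10* higher in every one (0.28, standard error 0.086). Of all tested genes, 24.3% had groups that did not overlap. Across the 16575 genes tested, the log2 fold change rose with exonic length (Spearman's rho = 0.391 across genes, which are not independent replicates). Length-corrected values are therefore given beside several of the genes.

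The windows below are the 250 bases before the RefSeq start of 2 members (GRCm38.p6). They are shown because *Gja1* is the member that was called and *Gjd2* the member with the highest level. Each is printed 5′ to 3′ on the gene's own strand, with capitals for the letters of a motif that was found. The *Gja1* window is chr10:56377050-56377299 on the plus strand, and the *Gjd2* window is chr2:114013620-114013869 on the minus strand.
Gja1: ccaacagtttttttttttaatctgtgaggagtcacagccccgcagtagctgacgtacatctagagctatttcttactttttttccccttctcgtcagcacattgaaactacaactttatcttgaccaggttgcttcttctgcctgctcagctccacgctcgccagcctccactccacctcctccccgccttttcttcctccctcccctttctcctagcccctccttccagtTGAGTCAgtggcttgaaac
Gjd2: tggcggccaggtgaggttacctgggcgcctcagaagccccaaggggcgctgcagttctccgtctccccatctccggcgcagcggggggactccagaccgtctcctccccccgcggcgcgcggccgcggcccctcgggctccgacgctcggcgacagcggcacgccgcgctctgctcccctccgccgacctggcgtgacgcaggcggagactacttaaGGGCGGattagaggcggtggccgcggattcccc
A RefSeq window was found for 7 of the 8 members, all but *Gjc1*. Letters of 3 motifs, none of which overlaps another, were searched on both strands, also as their reverse complement. The TEAD letters CATTCC, the core that the DNA-binding partners of YAP recognise, occurred in 0 of these 7 windows and in 12.64% of 32851 promoter windows of the same length. The AP-1 letters TGAGTCA occurred in the *Gja1* window only, starting 19 bases before the start site, and in 4.46% of all windows. The Sp1 letters GGGCGG occurred in *Gjd2*, 33 bases before the start site, and in *Gja4*, *Gja5* and *Gjb2*, as in 32.74% of all windows. *Gja1*, *Gja10* and *Gjb6* held none of the Sp1 letters. G and C made up 74.0% of the *Gjd2* window and 41.2% of the *Gja10* window, the extremes among the 7.

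Among the glial connexins, *Gja1* was lower in every *Yap* cKO retina while *Gjb2* and *Gjb6* were barely detected in either group. *Gja1* encodes connexin Cx43, the main connexin of astrocytes, which is also known from vessel walls, the ciliary epithelium, the pigment epithelium and fibroblasts. The gene (ENSMUSG00000050953) lies on chromosome 10 of GRCm38, from 56377330 to 56402513 on the plus strand. Control YR612 had 9.15 TPM, YR613 7.84 TPM and YR615 8.19 TPM. Among the *Yap* cKO retinas, YR711 had 1.42 TPM, YR713 3.78 TPM and YR714 1.95 TPM. Every *Yap* cKO retina was below every control retina, and YR713 was the highest of the *Yap* cKO retinas. The underlying counts were 619, 551 and 646 against 93, 337 and 137. Group means were 8.39 ± 0.677 TPM (SD, n = 3) in control and 2.38 ± 1.24 TPM in *Yap* cKO, 3.62-fold lower in the fit (log2 fold change -1.86, standard error 0.29). With the length correction the log2 fold change was -2.01.

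*Gja1* met the criteria of the study's methods for a differentially expressed gene, which ask for an adjusted p no higher than 0.05, a 1.5-fold difference and 5 TPM or more in the mean of 1 group. It was the only one of the 6 tested members that did, where 0.796% of all tested genes were called (0.585% lower and 0.211% higher), and nothing is read from this because the members were selected with the contrast known. Of the other tested members, *Gja4* and *Gja5* were below 5 TPM in both groups and could not meet the criteria. It no longer met the criteria when control YR612 or control YR615 was left out, with log2 fold changes of -1.77 and -1.88. Without *Yap* cKO YR713, its highest *Yap* cKO retina, the log2 fold change was -2.36.

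*Gjb2* and *Gjb6* encode Cx26 and Cx30, of which the latter is an astrocyte connexin of the brain and both are abundant in the cochlea. They are neighbours on chromosome 14 of GRCm38, *Gjb2* (ENSMUSG00000046352) from 57098600 to 57104702 and *Gjb6* (ENSMUSG00000040055) from 57123303 to 57133611, both on the minus strand. *Gjb2* had 4, 1 and 3 counts in the control retinas and 2, 4 and 0 counts in the *Yap* cKO retinas. *Gjb6* had 2, 0 and 0 counts in the control retinas and 0, 1 and 0 counts in the *Yap* cKO retinas. Neither gene passed the filter on low counts. A count of 3, the limit that a count of 0 allows, corresponds to 0.143 to 0.195 TPM for *Gjb2* and to 0.129 to 0.176 TPM for *Gjb6* in these libraries, counting error only. A difference between the groups was not detectable for these genes at this depth, and no fold change is given.

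**Figure D1:**
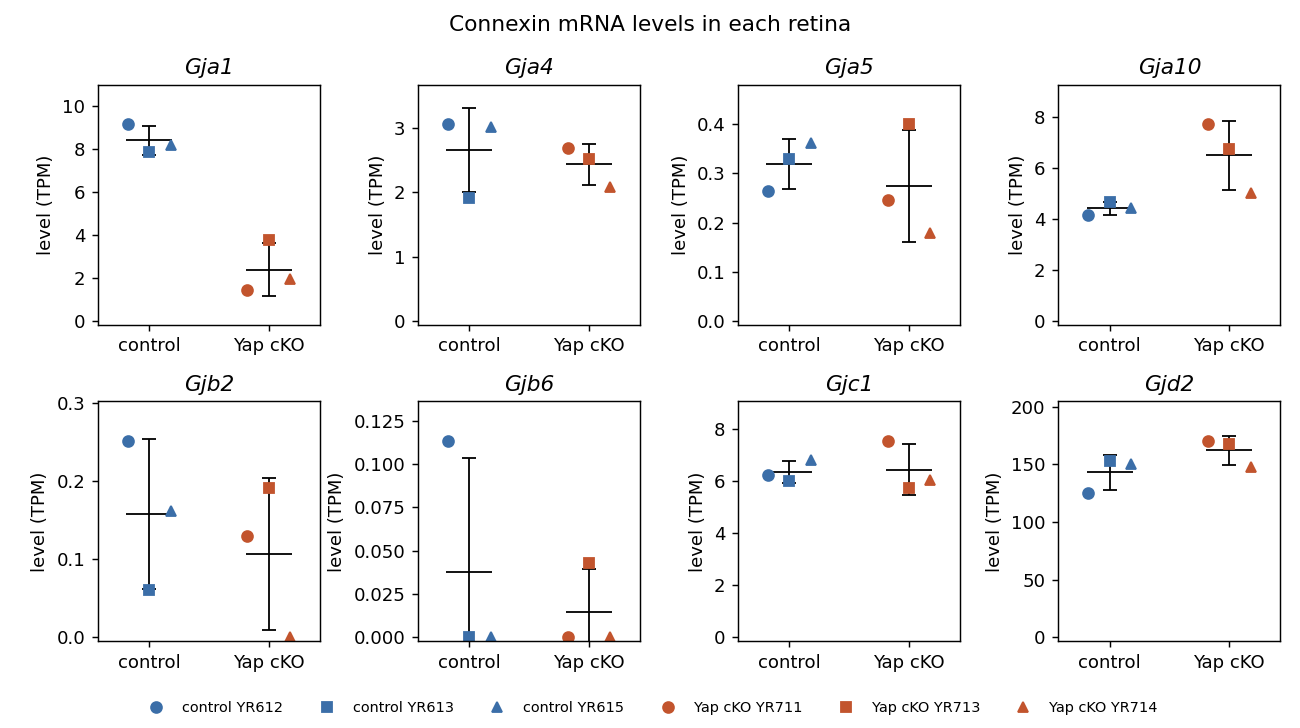
Level of each of the 8 connexin genes in each retina, in TPM on a linear axis that starts at 0 and differs between panels. Points are retinas, horizontal bars are group means and error bars are the SD (n = 3), cut at 0. *Gja1* lies between 7.84 and 9.15 TPM in the control retinas and between 1.42 and 3.78 TPM in the *Yap* cKO retinas, and *Gja10* is the other member whose groups do not overlap.

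The vessel connexins showed overlapping levels in both groups. *Gja4* and *Gja5* encode Cx37 and Cx40, the connexins of arterial endothelium, and *Gjc1* encodes Cx45, which is known from mural cells and also from some retinal neurons. *Gja4* (ENSMUSG00000050234, chromosome 4, 127311421 to 127314039) was at 3.06, 1.91 and 3.01 TPM in control and at 2.69, 2.52 and 2.08 TPM in *Yap* cKO retinas. The widest gap was between control retinas, and the log2 fold change was -0.19 (standard error 0.25, 95% interval -0.76 to 0.38), or -0.06 with the length correction. *Gja5* (ENSMUSG00000057123, chromosome 3, 96904693 to 97077416) was at 0.264, 0.330 and 0.362 TPM in control and at 0.245, 0.400 and 0.178 TPM in *Yap* cKO retinas, from 7 to 20 counts per library. The *Yap* cKO retinas held both the highest and the lowest value, and the log2 fold change was -0.24 (standard error 0.36, 95% interval -1.04 to 0.57).

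*Gjc1* (ENSMUSG00000034520, chromosome 11, 102799579 to 102819700) had 6.24, 6.01 and 6.81 TPM in control and 7.54, 5.74 and 6.03 TPM in *Yap* cKO retinas. The *Yap* cKO retinas again spanned the control range, and the log2 fold change was -0.04 (standard error 0.13, 95% interval -0.35 to 0.26). Its sign turned when control YR615 or *Yap* cKO YR713 was left out. The summed level of 10 endothelial markers was 237 to 246 TPM in control and 207 to 268 TPM in *Yap* cKO retinas. For 5 arterial markers it was 44.9 to 47.6 TPM against 44.0 to 50.6 TPM, and for 10 mural cell markers 107 to 114 TPM against 95.4 to 124 TPM. All 3 vessel lists overlapped between the groups. None of their genes was called in edgeR's quasi-likelihood test, where 0.796% of all tested genes were called. Genes below 5 TPM in both groups could not be called, so nothing is read from the absence of calls. These were *Tie1* and *Emcn* of the endothelial list and *Sox17*, *Bmx* and *Dll4* of the arterial list. In the mural list they were *Kcnj8*, *Abcc9*, *Notch3*, *Cspg4*, *Myh11* and *Des*. At an unadjusted p below 0.05 in that test were 2 endothelial, 0 arterial and 2 mural genes.

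The neuronal connexins held most of the connexin transcripts of the retina. *Gjd2* encodes Cx36, the connexin of electrical synapses, which couples AII amacrine cells, cone bipolar cells and photoreceptors. The gene (ENSMUSG00000068615) lies on chromosome 2 from 114009601 to 114013619. It was at 126, 153 and 151 TPM in control and at 170, 168 and 148 TPM in *Yap* cKO retinas. The groups overlapped through *Yap* cKO YR714, which lay below 2 of the control retinas. Means were 143 ± 15.3 TPM (SD, n = 3) for control and 162 ± 12.5 TPM for *Yap* cKO retinas, with a log2 fold change of 0.12 (standard error 0.086, 95% interval -0.07 to 0.32) and of 0.20 with the length correction.

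*Gja10* encodes Cx57, which couples horizontal cells and is hardly known from other retinal cells. The gene (ENSMUSG00000051056) lies on chromosome 4 from 32596960 to 32602760. It was at 4.15, 4.67 and 4.41 TPM in control and at 7.70, 6.72 and 5.02 TPM in *Yap* cKO retinas. All *Yap* cKO retinas were above all control retinas, with YR714 closest to them. In counts the gap was narrow, with 59, 69 and 73 against 106, 126 and 74 counts. The log2 fold change was 0.49 (standard error 0.18, 95% interval 0.10 to 0.89) and the gene was not called. With the length correction it was 0.60, and it was 0.36 without *Yap* cKO YR711. *Gja1* and *Gja10* were the 2 members whose groups did not overlap, beside 24.3% of the tested genes as a whole (9.04% lower and 15.2% higher in *Yap* cKO retinas), and nothing is read from this count either.

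Markers of horizontal cells were set beside *Gja10*. The summed level of 5 markers was 123 to 140 TPM in control and 118 to 129 TPM in *Yap* cKO retinas and overlapped. The single genes went different ways, and none was called. *Onecut1* and *Onecut2* were below 5 TPM in both groups and could not be called. *Lhx1* and *Onecut1*, transcription factors of these cells, had log2 fold changes of 0.42 (standard error 0.13) and 0.99 (standard error 0.29) with higher levels in all *Yap* cKO retinas. *Calb1*, which encodes the calcium-binding protein calbindin and supplies most of the summed level, had a log2 fold change of -0.23 (standard error 0.078) with lower levels in all *Yap* cKO retinas. *Gja10* was at 175%, 152% and 114% of the control mean in YR711, YR713 and YR714, *Lhx1* at 153%, 142% and 124%, and *Calb1* at 91.1%, 84.4% and 91.2%. These markers were singled out after their values were seen, and their part in the level of *Gja10* was not tested.

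**Figure D2:**
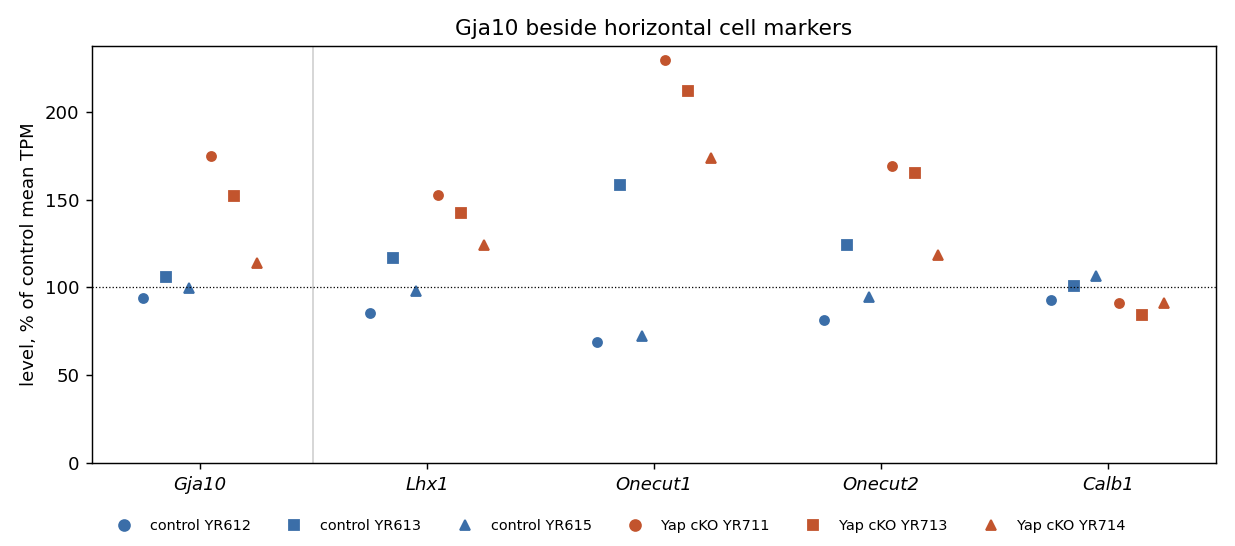
Level of *Gja10* and of 4 of the horizontal cell markers in each retina, as a percentage of the control mean TPM of the same gene, with the dotted line at 100%. *Gja10*, *Lhx1* and *Onecut1* lie higher in all 3 *Yap* cKO retinas than in any control retina, *Calb1* lies lower, and *Onecut2* overlaps.

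In control retinas the order of levels per length was *Gjd2*, *Gja1*, *Gjc1*, *Gja10*, *Gja4*, *Gja5*, *Gjb2* and *Gjb6*, and only the last 2 neighbours overlapped in their range over retinas. In *Yap* cKO retinas *Gjd2* was followed by *Gja10* and *Gjc1*, whose ranges overlapped, then by *Gja4* and *Gja1*, whose ranges also overlapped, and by *Gja5*, *Gjb2* and *Gjb6*. The rank of *Gja1* was 2 in control and 5 in *Yap* cKO retinas. This order depends on the length used. The exonic length of *Gja1* in the count table is 10257 bases, the union of all its exons, while its longest coding transcript in GENCODE M21 has 3182 bases. With the longest coding transcript of each gene in its place, a choice made after the data were seen, *Gja1* had a level of 27.1 in control and 7.68 in *Yap* cKO retinas on the rescaled TPM scale and ranked 2 and 3.

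The 8 genes carried 97.6% to 98.5% of the summed TPM of all 20 connexins. That sum was 152, 177 and 177 TPM in control and 193, 191 and 167 TPM in *Yap* cKO retinas, and the groups overlapped. *Gjd2* alone supplied 82.7% to 86.7% of it in control and 87.9% to 88.4% in *Yap* cKO retinas. Like the order of levels, the shares given here depend on the length used. With the longest coding transcript, control levels were 143 for *Gjd2*, 27.1 for *Gja1* and 13.7 for *Gjc1*. The share of *Gja1* was 6.03%, 4.43% and 4.62% in control and 0.734%, 1.98% and 1.17% in *Yap* cKO retinas. Leaving *Gjd2* out, *Gja1* made up 34.9%, 33.4% and 30.6% of the remaining connexin TPM in control and 6.23%, 16.3% and 10.1% in *Yap* cKO retinas.

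The other 12 connexins were low, with a summed level of 2.69 to 3.86 TPM in control and 3.07 to 4.08 TPM in *Yap* cKO retinas. None could reach the 5 TPM that a call needs, so that 0 of the 2 that passed the filter were called was fixed by their level. None of the 2 had an unadjusted p below 0.05 in edgeR's quasi-likelihood test. *Gje1*, a connexin known from the lens, had a log2 fold change of -0.35 (standard error 0.34, 95% interval -1.12 to 0.43, edgeR's adjusted p = 0.574), or -0.21 with the length correction.

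The other 10 did not pass the filter on low counts. Among them *Gjb1*, which encodes Cx32 of myelinating cells and liver, had 0, 1 and 2 counts in control and 6, 6 and 3 counts in *Yap* cKO retinas. The summed level of 4 oligodendrocyte markers was 15.8 to 17.1 TPM in control and 17.7 to 21.7 TPM in *Yap* cKO retinas. Of these markers, *Mog* and *Mobp* each had 1 count in YR711 and 0 in every other library. At these counts no direction is read for *Gjb1*.

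*Gja3*, *Gja6*, *Gjc3*, *Gjd3* and *Gjd4* had at most 2 counts in any library, and *Gjb5* had none. *Gjb5* lies near *Gja4* on chromosome 4, from 127354809 to 127358181, where *Gja4* itself had 22 to 39 counts per library. No exon of a connexin overlaps an exon of another gene on its own strand, and strand was used in the counting.

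Pannexins form channels of similar topology from an unrelated gene family and do not usually build gap junctions. *Panx2*, a pannexin of neurons, was at 62.5 ± 2.49 TPM (SD, n = 3) in control against 63.9 ± 10.6 TPM in *Yap* cKO retinas, with a log2 fold change of -0.03 (95% interval -0.31 to 0.26, adjusted p = 0.922, edgeR's quasi-likelihood test). *Panx1* had 6.75 ± 0.711 TPM (SD, n = 3) in control against 7.72 ± 0.309 TPM in *Yap* cKO retinas. All its *Yap* cKO retinas were higher, but its log2 fold change was 0.14 (95% interval -0.10 to 0.38, adjusted p = 0.473, edgeR's quasi-likelihood test) and 0.09 with the length correction. *Panx3* had 2 to 5 counts per library and was not tested. Neither tested pannexin was called or had an unadjusted p below 0.05. Both log2 fold changes were far inside the 0.585 that a call needs. That DESeq2, the likelihood ratio test and limma-voom also called neither therefore adds nothing.

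Genes of 12 proteins known to bind, traffic or phosphorylate connexins were examined next. Of these, 11 were tested and 0 were called by edgeR's quasi-likelihood test, where 0.796% of all tested genes were called. All 11 log2 fold changes were inside the 1.5-fold limit of a call, so the 0 calls by DESeq2, the likelihood ratio test and limma-voom add little. In edgeR's quasi-likelihood test 4 of the 11 had an unadjusted p below 0.05, and nothing is read from either count. The median log2 fold change of the 11 genes was 0.07, beside a median of 0.00 over all tested genes, with 8 above and 3 below 0. *Nedd4*, a ubiquitin ligase that targets Cx43, had the highest level, 231 ± 30.5 TPM (SD, n = 3) in control against 286 ± 33.9 TPM in *Yap* cKO retinas. Its log2 fold change of 0.25 (adjusted p = 0.208, edgeR) became 0.04 with the length correction, its exonic length being 12601 bases.

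*Cav1*, named here after its values were seen, came closest to a call. It encodes caveolin 1, the coat protein of caveolae, which binds Cx43 and is abundant in endothelium and Müller glia. It was at 76.1, 91.2 and 83.2 TPM in control and at 74.4, 59.1 and 52.0 TPM in *Yap* cKO retinas. The *Yap* cKO retinas were all lower, YR711 by a small margin. Its log2 difference was -0.49 (SE 0.12, edgeR's adjusted p = 0.0750) and -0.44 with the length correction. Leaving out 1 retina at a time, the adjusted p ranged from 0.0209 to 0.311, and *Cav1* was called only without *Yap* cKO YR711, where the log2 fold change was -0.64.

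**Figure D3:**
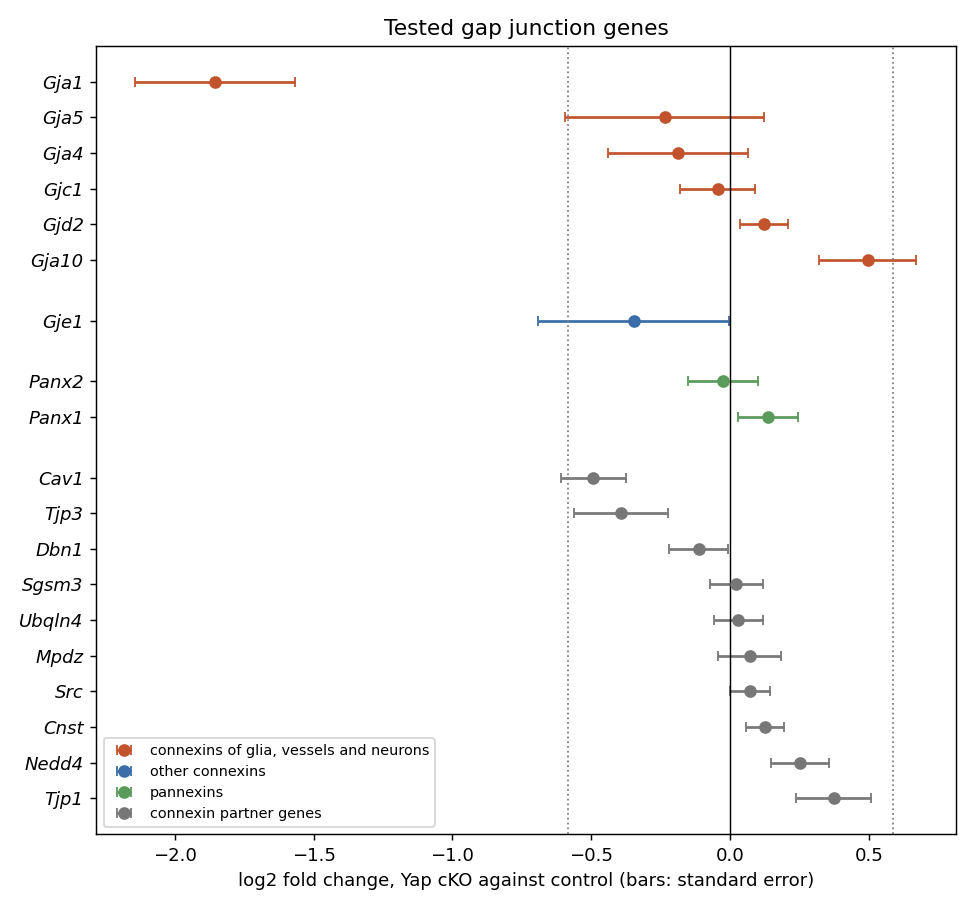
Log2 fold change, *Yap* cKO against control, of the 6 tested members and of tested genes among the other connexins, pannexins and connexin partners, with bars of 1 standard error; dotted lines mark a 1.5-fold difference in either direction. *Gja1* lies at -1.86, and the points of the other genes drawn lie inside the dotted lines.

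Because *Gja1* is shared by many cell types, marker lists of the cells that a dissected retina can hold were set beside it. In bulk samples, fewer cells of a type and less RNA per cell cannot be told apart. The astrocyte list, 5 genes, overlapped with 95.3 to 118 TPM in control and 93.7 to 104 TPM in *Yap* cKO retinas. Within it *Pax2*, with 8 to 23 counts per library, had a log2 fold change of 0.17 (standard error 0.35). *Gfap*, which the study also reads as a sign of Müller cell gliosis, had one of -0.33 (standard error 0.19) and was not called. *Pax2*, below 5 TPM in both groups, could not be called. *S100b* was higher in every *Yap* cKO retina (log2 fold change 0.12, standard error 0.099), and *Pdgfra* overlapped (-0.05, standard error 0.12). Neither was called. *Aldh1l1*, a folate enzyme of astrocytes and Müller glia, fell by 0.79 on the log2 scale (standard error 0.092, adjusted p = 0.00437 in edgeR's quasi-likelihood test), to 58.3% to 62.1% of the control mean in the *Yap* cKO retinas.

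The non-pigmented ciliary epithelium, a site of recombinase activity in this line, borders the dissected retina. Its 5 markers summed to 74.7 to 89.9 TPM in control and to 22.03 to 41.1 TPM in *Yap* cKO retinas, 4 of the 5 being lower in every *Yap* cKO retina. This count and the like counts for the lists below stand beside 9.04% of all tested genes that were lower without overlap. In the mean, *Optc* supplied 48.0 of 81.2 TPM in control and 4.56 of 29.3 TPM in *Yap* cKO retinas. *Optc*, which encodes opticin of the ciliary epithelium, was called, with a log2 fold change of -3.41 (standard error 0.36). In YR711, YR713 and YR714, *Optc* stood at 5.95%, 17.5% and 5.09% of the control mean, where *Gja1* stood at 16.9%, 45.0% and 23.3%. In both genes YR713 was the highest of the *Yap* cKO retinas. *Otx1*, a transcription factor of the ciliary margin, stood at 18.8%, 50.7% and 14.7%. These percentages rest on 6, 22 and 5 counts, against 41, 27 and 37 counts in control. *Otx1* was below 5 TPM in both groups and could not be called. *Zic1*, also lower in every *Yap* cKO retina and not called, was at 5.11, 4.99 and 4.27 TPM, highest in YR711 (log2 fold change -0.46, standard error 0.12). *Msx1* had 7, 8 and 19 counts in control and 1, 5 and 3 counts in *Yap* cKO retinas and was not tested. *Wfdc1* overlapped, at 32.7, 21.4 and 22.1 TPM in control and at 13.8, 27.1 and 17.7 TPM in *Yap* cKO retinas.

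The 10 genes of pigment cells and pigment epithelium summed to 698 to 757 TPM in control and to 210 TPM in YR711, 404 TPM in YR713 and 694 TPM in YR714, with 6 of the 10 lower in every *Yap* cKO retina. *Pmel*, a melanosome protein, was called and stood at 17.9%, 48.0% and 16.5% of the control mean in these retinas. *Rpe65*, the visual cycle isomerase of the pigment epithelium, stood at 19.1%, 40.8% and 91.3% and *Ttr* at 31.7%, 58.1% and 101%, neither being called. For *Rpe65* and *Ttr* YR714 was the highest *Yap* cKO retina, whereas *Gja1* was higher in YR713.

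The leptomeningeal list, 4 genes, summed to 10.5 to 14.2 TPM in control and to 4.51 to 5.06 TPM in *Yap* cKO retinas. *Ogn*, an extracellular matrix proteoglycan, was called, at 12.1%, 22.9% and 14.6% of the control mean, and supplied most of the sum in control retinas (10.6 of 12.1 TPM in the mean) but not in *Yap* cKO retinas (1.75 of 4.71 TPM). *Slc22a6* was at 0 in the *Yap* cKO retinas. The other tested genes of this list had positive log2 fold changes. They were below 5 TPM in both groups and could not be called. *Aldh1a2*, a retinoic acid synthesis enzyme, was higher in every *Yap* cKO retina (log2 fold change 2.11, standard error 0.44), and *Slc47a1* had a log2 fold change of 0.19 (standard error 0.21). The fibroblast list, 5 genes, summed to 3.76 to 5.64 TPM and to 1.44 to 2.12 TPM, with 1 of 5 lower in every *Yap* cKO retina. That gene was *Col1a2*, at -2.16 on the log2 scale (standard error 0.22), while *Col1a1* and *Col3a1*, also fibrillar collagen genes, had log2 fold changes of 0.08 and -0.00 and overlapped. The lens list, 6 genes, summed to 3.15 to 5.66 TPM and to 2.55 to 2.74 TPM, with 3 of 6 lower in every *Yap* cKO retina and *Lim2* at 0 in all libraries. Of these 3, *Mip* had 0 to 3 counts per library and was not tested, and *Bfsp1* and *Bfsp2* had 9 to 28 counts. The part of these cell types in the level of *Gja1* was not tested. The single markers were singled out after their values were seen.

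**Figure D4:**
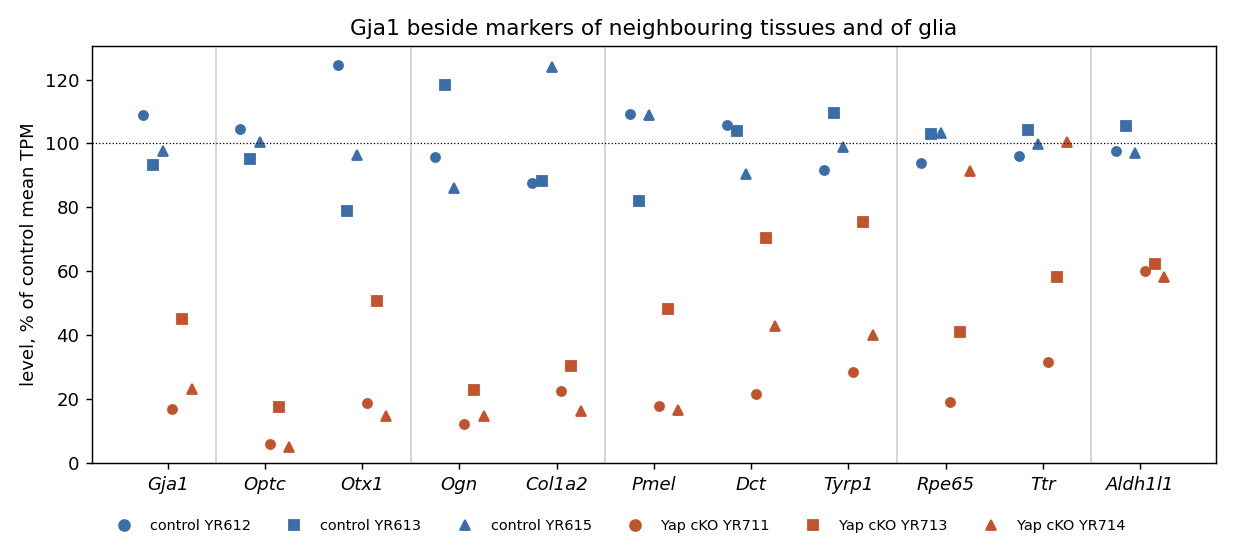
Level of *Gja1* and of 10 markers in each retina, as a percentage of the control mean TPM of the same gene, with the dotted line at 100%. Vertical lines separate, after *Gja1*, the ciliary epithelium (*Optc*, *Otx1*), leptomeninges and fibroblasts (*Ogn*, *Col1a2*), melanin genes (*Pmel*, *Dct*, *Tyrp1*), pigment epithelium (*Rpe65*, *Ttr*) and glia (*Aldh1l1*). *Gja1* lies at 16.9% to 45.0% in the *Yap* cKO retinas, with YR713 highest, while YR714 is highest for *Rpe65* and *Ttr*. *Ogn* and *Col1a2* do not stand for their lists: *Aldh1a2* (2.11), *Slc47a1* (0.19), *Col1a1* (0.08) and *Col3a1* (-0.00) of these lists, not drawn, had the log2 fold changes given. Of the ciliary list, *Zic1* (-0.46) and *Wfdc1* (-0.43), not drawn, had smaller differences than *Optc* and *Otx1*. *Otx1* had 5 to 41 counts per library. *Aldh1l1* does not stand for the astrocyte list either. Its *S100b* (0.12, higher in every *Yap* cKO retina), *Pax2* (0.17), *Gfap* (-0.33) and *Pdgfra* (-0.05), not drawn, had these log2 fold changes.

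The genes whose pattern over the 6 retinas was most like that of *Gja1*, by Pearson's r of log2 CPM (counts scaled to library size) among 12215 genes, were *Cldn2* (r = 0.995), *Fbln1* (r = 0.987), *Gas8* (r = 0.987), *Cd82* (r = 0.987) and *Haus4* (r = 0.986). In all, 72 genes reached r = 0.95. These 6 points come from the same libraries and fall into 2 separate groups, so the values are a description without a test. *Cldn2* encodes a claudin that forms paracellular channels in epithelia. It was at 6.56, 5.57 and 4.93 TPM in control and at 0.188, 1.002 and 0.440 TPM in *Yap* cKO retinas, the same order of *Yap* cKO retinas as *Gja1*. *Fbln1* encodes the matrix protein fibulin 1. It was at 53.5, 36.0 and 41.9 TPM in control and at 2.29, 10.7 and 2.01 TPM in *Yap* cKO retinas, again highest in YR713. *Cldn2* and *Fbln1* were called, with log2 fold changes of -3.35 and -3.15. *Gas8*, *Cd82* and *Haus4* had log2 fold changes of -0.24, -0.53 and -0.29 and were not called.

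**Figure D5:**
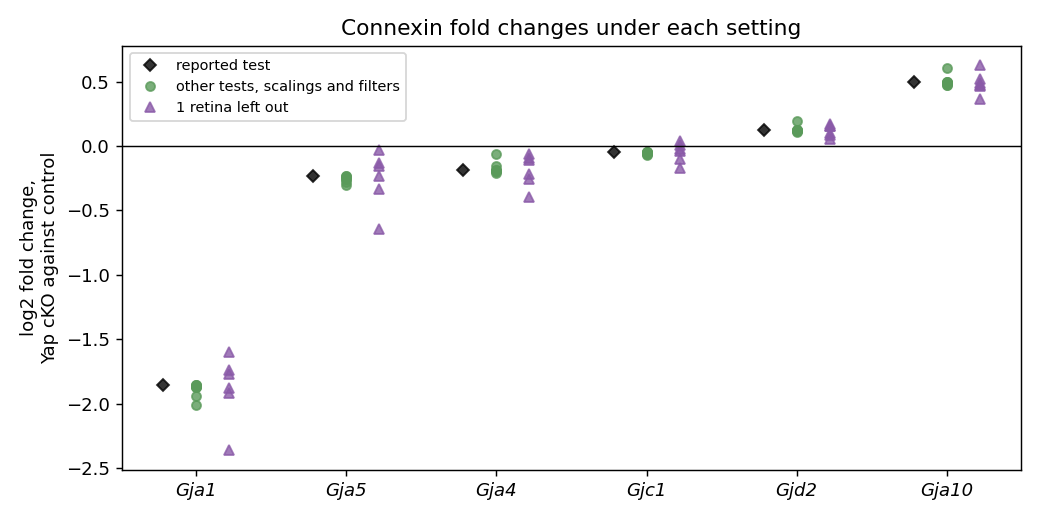
Log2 fold change, *Yap* cKO against control, of the 6 tested connexins under the reported test (diamonds), under other tests, scalings and filters (circles) and with 1 retina left out (triangles). *Gja1* ranges from -2.36 to -1.60 over all of these settings, *Gja10* from 0.36 to 0.63, and *Gjc1* lies on both sides of 0.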

How the data were processed

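The authors aligned paired-end reads of stranded, polyadenylated libraries to GRCm38 with STAR 2.7.3a (version per the labels) and counted fragments per gene with featureCounts 1.6.2, strand setting 2, per the file header, which names annotation release 98. The deposited values are raw counts, 1 column per retina, with each gene's exonic length. The steps below started from these counts. TPM was computed from counts and exonic length. Genes passing filterByExpr entered edgeR's quasi-likelihood test with TMM factors (R 4.3.3, edgeR 4.0.16), 3 against 3 retinas without covariates, and p-values were adjusted by Benjamini-Hochberg over all 16575 tested genes. As in the study's methods, calls needed an adjusted p no higher than 0.05, a 1.5-fold difference and 5 TPM or more in the mean of 1 group. The study calls the retinas independent biological replicates. The test within edgeR that the study ran is not given in the sources used here. With 3 against 3 retinas the smallest two-sided p of an exact permutation test is 0.1, and none is given.

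The members, gene lists and rules were chosen with earlier results of these data known. Named by rule were all members, the other connexins and pannexins with any count, partner genes that were called, or had non-overlapping groups and a 1.5-fold difference, or were among the 2 with the highest mean TPM, *Yap1*, marker lists whose summed TPM differed 1.5-fold between the groups, and the 5 genes most like *Gja1*. Some genes that this rule names are not reported here. Other genes and lists named were chosen after their values were seen. Alternatives were DESeq2 1.42.0, edgeR's likelihood ratio test, limma-voom (limma 3.58.1), other size factors, other filters, a TPM minimum of 1, offsets from a loess curve (span 0.3) of relative expression against length in each retina, and leaving out single retinas. The fitting steps were tested on simulated counts. Promoter windows came from RefSeq (GRCm38.p6) and transcript lengths from GENCODE M21.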

Additional observations from a re-analysis of the deposited data

How the results depend on the processing

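Over 83 recomputed log2 fold changes of the 6 tested connexins, 79 kept their direction and their side of the criteria, 0 newly met them, 2 no longer met them and 2 turned sign. The 2 that no longer met the criteria were *Gja1* without control YR612 and without control YR615, and the cause was not tested. Both changes of sign were of *Gjc1*, at 0.0048 (control YR615 left out) and 0.037 (*Yap* cKO YR713 left out), within a range of -0.17 to 0.04 with each retina left out. Leaving out 1 retina at a time, the number of the 8 connexins called ranged from 0 to 1, that of the partner genes from 0 to 1 (*Cav1* without *Yap* cKO YR711), and that of the other connexins and pannexins stayed at 0. Under the other tests, scalings and filters these counts were 1, 0 and 0, as reported. The fold limit and a TPM minimum applied under every setting, so the counts of 0 are not agreement between tests. Over all genes, the number called ranged from 38 without control YR615 to 516 without control YR613. *Gja5* had no value under the filter of 1 CPM in 3 retinas, and its range with each retina left out was -0.65 to -0.03. The rank of *Gja1* in *Yap* cKO retinas moved from 5 to 3 with transcript length. At this depth *Gjb2*, *Gjb6* and 10 of the 12 other connexins held too few counts to be tested.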
